A study of Rattus norvegicus with 4 samples.

Results

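Potassium and calcium channel subunits were followed in 2 rat prostate tumour lines through every array feature whose annotated gene symbol starts with Kcn or Cacn and names a single gene. A feature here is a probe set, a group of short oligonucleotides that reads 1 transcript region. The rule found 108 probe sets for 68 genes, of 7006 single-gene probe sets for 4736 genes. Of these, 82 probe sets for 54 genes read potassium channel subunits and 26 probe sets for 14 genes read calcium channel subunits. The 2 lines are G and MAT-LyLu, both sublines of the Dunning R3327 rat prostatic tumour. By the labels G, the control group, is a non-metastatic line, whereas MAT-LyLu is highly metastatic. Each line was hybridised to 2 arrays, numbered 0 and 1, with total RNA as the starting material and biotin as the label. The labels name no treatment, time or culture for any array, and each line stands for its group as a single line. No label says that the duplicates came from separate cultures, so the p-values measure only how far these arrays spread, and that spread may be technical.

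Potassium channels let potassium leave the cell and so set the resting membrane potential and end electrical excitation. Voltage-gated potassium (Kv) channels open on depolarisation, inward rectifiers (Kcnj) pass current best near rest, tandem-pore (Kcnk) channels carry background leak, and calcium-activated channels couple internal calcium to the membrane. Voltage-gated calcium channels are built on a pore-forming alpha-1 subunit, which an intracellular beta subunit and an alpha-2-delta subunit carry to the surface and tune. In prostate tumour lines such channels have been studied for their bearing on membrane potential, proliferation and cell movement.

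Signal is given in the array's own linear units, and a level of 1 probe set is not comparable with that of another, since probes bind with different strength. As a background measured in the same hybridisations, the 95th percentile of 23 control probe sets for bacterial, yeast and mouse transcripts was taken on each array. This control level was 1973 and 2143 on the G arrays and 1891 and 2311 on the MAT-LyLu arrays. A probe set was counted as above it in a line only where both arrays of the line exceeded it. The highest channel signal on any array was 15342, below the array maxima of 45582 to 64036.

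In G, 52 of the 108 channel probe sets lay above the control level on both arrays, 9 on 1 array and 47 on neither. In MAT-LyLu the counts were 49, 12 and 47. The counts above it move with the level: with 9 antisense-strand controls added they were 24 in G and 23 in MAT-LyLu, and against the median control probe set 93 in each. On all 4 arrays 48 probe sets (44.4%) were above it, against 4957 of 8740 rat probe sets (56.7%). A further 44 (40.7%) were above it on no array, against 30.1% of all rat probe sets. Kcnk1 alone was above in G and on neither MAT-LyLu array, and Cacna2d1 alone the other way round. Of the 53 probe sets above it in at least 1 line, 48 were above it in both.

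**Figure D1:**
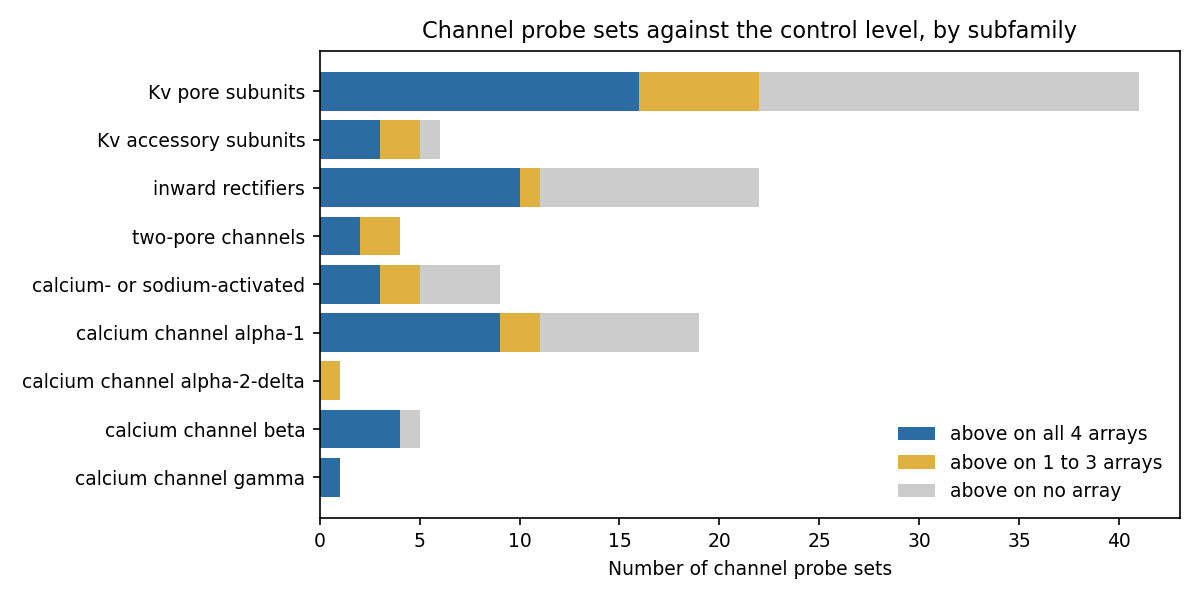
Number of channel probe sets (horizontal axis) in each subfamily, split by how many of the 4 arrays gave a signal above the control level of that array. The Kv pore subunits hold 16 probe sets above on all arrays and 19 above on none, and the inward rectifiers 10 and 11.

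Standing above the control level is a weak sign of expression in these hybridisations. Of 34 markers of neurons, muscle, endothelium and leukocytes on the array, 22 (64.7%) were above it in both lines. The test between the lines called 2 of the 34, beside 33.7% of all probe sets tested. Not all of the 34 were tested, since the filter on low signal left out some, such as Nefm and Kdr. Of 9 prostate epithelial markers, Krt5 was above it in both lines and Krt8 in MAT-LyLu, while 6, including the secretory gene Pbsn, were above it on no array. All 7 mesenchymal markers were above it in G and 4 of 7 in MAT-LyLu, with Col1a1 among the 4 that fell and Fn1 the 1 that rose. Summed signal of the mesenchymal list was 167705 to 189771 on the G arrays and 88413 to 94342 on the MAT-LyLu arrays. For the neuronal list the sums were 33783 to 35024 and 32358 to 34134, and for muscle 54478 to 58052 and 53373 to 53933. The samples are titled as cell lines, and the part of other cell types in the channel values was not tested. In bulk RNA fewer cells of a type and less RNA per cell cannot be told apart.

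Among the Kv pore subunits, 17 of 41 probe sets were above the control level in at least 1 line. They read Kcna1, Kcna4, Kcna5, Kcnc2, Kcnc4, Kcnd2, Kcnd3, Kcng1, Kcnh2, Kcnh3, Kcnh4, Kcnh6, Kcnq3 and Kcnv1, with Kcnh2, Kcnh3 and Kcnq3 each read by 2. The Kcnh genes encode the ether-a-go-go family and Kcng1 and Kcnv1 encode modifiers that are silent on their own. Kcna4 was above on both G arrays and 1 MAT-LyLu array. Kcnh3 read 14479 and 15342 in G and 14183 and 14792 in MAT-LyLu. Kcnc4, a subunit of the same class as Kcnc2, read 6546 and 6664 in G and 6811 and 6605 in MAT-LyLu. Neither passed the test, at log2 differences of -0.04 and 0.02, and for both genes the arrays of the lines overlapped.

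The accessory subunits Kcnab1, Kcnab2 and Kcnab3, cytoplasmic beta subunits of Kv channels, and Kcne1, a single-span membrane partner, accounted for 5 of 6 accessory probe sets above the control level in at least 1 line. One Kcnab2 probe set and Kcne1 reached it on only 1 MAT-LyLu array. Kcnab3 read 5645 and 5822 in G and 5227 and 5804 in MAT-LyLu, which overlap. Inward rectifiers were above it for 10 of 22 probe sets, reading Kcnj1, Kcnj4, Kcnj10, Kcnj11, Kcnj14, Kcnj15 and Kcnj16. Kcnj11, the pore of the ATP-sensitive channel, read 5413 and 7261 in G and 6043 and 6057 in MAT-LyLu on its brighter probe set. These overlap (log2 difference -0.05). The dimmer Kcnj11 probe set read 5049 and 5017 in G and 5928 and 5726 in MAT-LyLu, without overlap. It did not pass the test (log2 difference 0.21, limma adjusted p = 0.081). Kcnj14 read 5852 and 5531 in G and 5197 and 5376 in MAT-LyLu, with both MAT-LyLu values under both G values, and did not pass the test (log2 difference -0.11).

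The 3 tandem-pore genes on the array, Kcnk1, Kcnk3 and Kcnk5, were each above the control level in at least 1 line. Kcnk3, an acid-sensitive leak channel, read 3615 and 4730 in G and 3487 and 3885 in MAT-LyLu, with overlapping arrays. Of the calcium- or sodium-activated group, both Kcnmb1 probe sets and Kcnn1 were above it. Kcnmb1 is the beta-1 subunit of the large-conductance calcium-activated channel, whose pore gene Kcnma1 was read by 4 probe sets, none above the level on both arrays of a line.

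For calcium channels, all 8 alpha-1 genes on the array had a probe set above the control level on all 4 arrays: Cacna1a, Cacna1b, Cacna1c, Cacna1d (2 probe sets), Cacna1e, Cacna1g, Cacna1h and Cacna1s. They span the L-type (Cacna1c, Cacna1d, Cacna1s), neuronal high-voltage (Cacna1a, Cacna1b, Cacna1e) and T-type (Cacna1g, Cacna1h) classes. Cacna1b read 6457 and 5754 in G and 6476 and 6700 in MAT-LyLu, a log2 difference of 0.11 that did not pass the test. Among the beta subunits Cacnb1, Cacnb2 (2 probe sets) and Cacnb3 were above it and Cacnb4 was not. Cacnb1 read 7088 and 6290 in G and 6555 and 6841 in MAT-LyLu, and the brighter Cacnb2 probe set 5881 and 5927 in G and 5579 and 5989 in MAT-LyLu. Both overlapped. Cacng1, a gamma subunit known from skeletal muscle, was above it on all arrays at 3546 and 3258 in G and 3260 and 3429 in MAT-LyLu.

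MAT-LyLu was then compared with G as the control. Of the 108 channel probe sets, 76 passed the filter on low signal and 14 of them passed the limma test, a linear model over 6555 probe sets with Benjamini-Hochberg adjustment at 0.05. This is 18.4% of the channel probe sets tested, beside 33.7% of all probe sets tested. In MAT-LyLu 7 were higher and 7 lower, where 13.6% and 20.1% of all probe sets tested were higher and lower. A total of 16 of the 76 had an unadjusted p under 0.05, beside 2734 of all 6555. The 76 had lower signal, with a median mean of 2791 in G and 2902 in MAT-LyLu, beside 4342 and 4207 for the 6555. Of the 76, 15.8% were above the control level on no array, beside 7.70% of the 6555. Whether signal bears on the shares in this comparison was not tested. The count of 7 higher became 3 without G replicate 1, 4 without MAT-LyLu replicate 0 and 2 without MAT-LyLu replicate 1. The array values of the 2 lines did not overlap for 53 of the 108 (49.1%, against 64.2% of rat probe sets). One of the 108, Kcnk1, differed 2-fold or more (0.926%, against 7.96% of rat probe sets), and 8.36% of probe sets tested both passed the test and reached 2-fold.

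**Figure D2:**
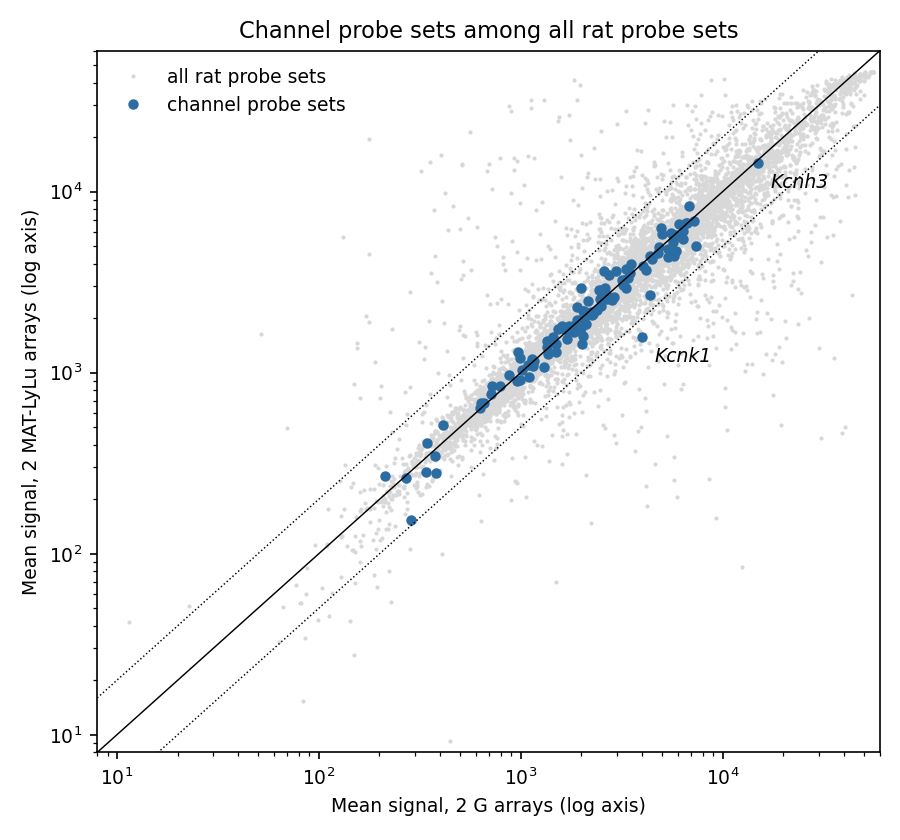
Mean signal of the 2 MAT-LyLu arrays against that of the 2 G arrays for each probe set, on log axes in array units, with lines of equality (solid) and 2-fold difference (dotted). The 108 channel probe sets lie close to equality, with Kcnk1 alone past 2-fold, while rat probe sets (grey) scatter further.

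The median log2 difference was 0.0014 for the channel probe sets and -0.0215 for all rat probe sets. Its median size was 0.109 for channels and 0.178 for all rat probe sets. Array against array, the SD of the log2 difference over the 108 channel probe sets was 0.26 to 0.31 between arrays of different lines, 0.16 within G and 0.19 within MAT-LyLu. Across the 108 probe sets, which share the arrays and the scale, Pearson's r was 0.967 to 0.977 between arrays of different lines, 0.991 within G and 0.988 within MAT-LyLu. Across all 6555 probe sets tested it was 0.822 to 0.829 between lines. The 2 sets are unlike, since the 108 include probe sets with low signal and the 6555 do not.

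**Figure D3:**
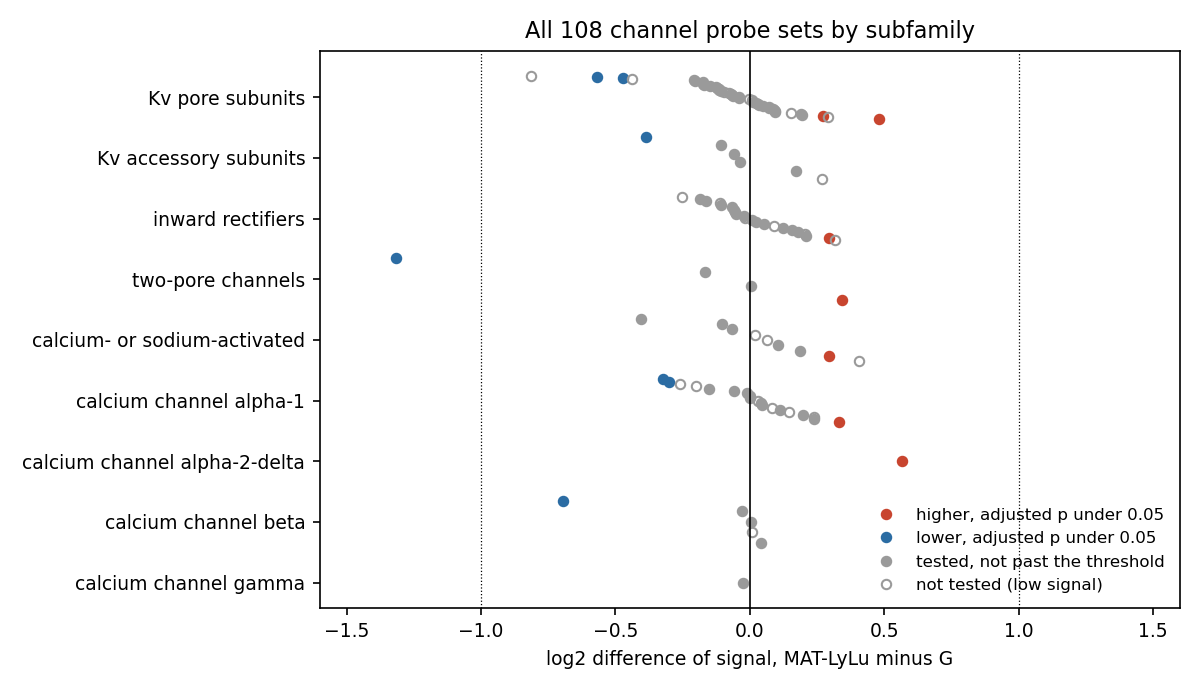
Log2 difference of signal, MAT-LyLu minus G, for each of the 108 channel probe sets by subfamily, with dotted lines at a 2-fold difference. Coloured points passed the limma test (7 higher, 7 lower), grey points did not, and 32 open points had too little signal to be tested.

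By subfamily, 2 of 27 Kv pore probe sets tested were higher and 2 lower. Of 5 accessory probe sets 1 was lower, of 15 inward rectifiers 1 was higher, and of 4 tandem-pore probe sets 1 was higher and 1 lower. In the calcium- or sodium-activated group 1 of 6 was higher. Of 13 alpha-1 probe sets 1 was higher and 2 lower, the single alpha-2-delta probe set was higher, 1 of 4 beta probe sets was lower, and the gamma probe set was not called. Both directions thus appeared within the potassium channels (5 higher, 4 lower of 57 tested) and within the calcium channels (2 higher, 3 lower of 19 tested). Whether subfamilies differed from each other was not tested.

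**Figure D4:**
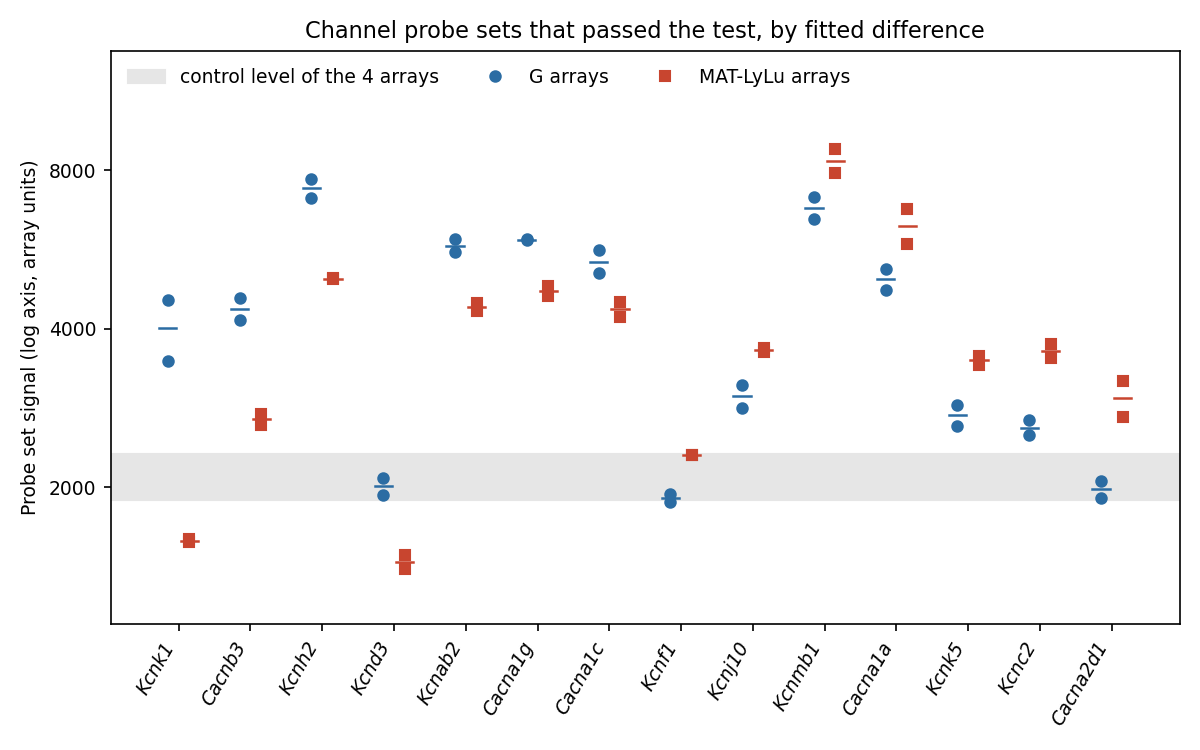
Signal on each array (log axis, array units) for the 14 channel probe sets that passed the limma test, ordered by fitted difference; circles are G arrays, squares MAT-LyLu arrays, short lines their means, and the grey band the range of the control level over the arrays. Kcnk1 falls from above the band to below it, and Cacna2d1 rises from within it to above it.

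Kcnk1 encodes a tandem-pore channel that carries background potassium leak. Its signal was 4536 and 3482 on the G arrays and 1576 and 1592 on the MAT-LyLu arrays. The MAT-LyLu values lay under the control level, and against that level Kcnk1 was at least 1.89-fold lower there. The fitted log2 difference was -1.32 (SE 0.13, limma adjusted p = 0.00013). With the antisense controls added, the level was 3955 and 4030 on the G arrays and 4142 and 3969 on the MAT-LyLu arrays. Only G replicate 0 exceeded it for Kcnk1, so the minimum fold holds only for the main level. Kcnk5, a tandem-pore channel that responds to alkaline pH, went the other way, at 2621 and 2868 in G and 3413 and 3554 in MAT-LyLu. It was 1.27-fold higher in MAT-LyLu (log2 difference 0.34, SE 0.09, limma adjusted p = 0.019). Without G replicate 0 the limma adjusted p of Kcnk5 was 0.076, and without MAT-LyLu replicate 1 it was 0.095.

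Kcnh2 encodes the pore of the rapid delayed rectifier of heart muscle. It read 7713 and 7087 in G and 4970 and 4991 in MAT-LyLu, 1.48-fold lower (log2 difference -0.57, SE 0.08, limma adjusted p = 0.0013). The other Kcnh2 probe set read 6886 and 5798 in G and 5381 and 5586 in MAT-LyLu but missed the threshold (log2 difference -0.20, limma adjusted p = 0.17; 0.048 without G replicate 1). Both had all G values above all MAT-LyLu values. Kcnc2, a fast-gating Kv subunit known from rapidly firing neurons, read 2683 and 2512 in G and 3525 and 3743 in MAT-LyLu. It was 1.40-fold higher (log2 difference 0.48, SE 0.09, limma adjusted p = 0.0035), while the other 3 Kcnc2 probe sets were under the control level on all arrays.

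Another pair of Kv pore genes passed the test with signal near the control level. A Kcnd3 probe set, for a rapidly inactivating A-type channel, read 2088 and 1934 in G and 1399 and 1488 in MAT-LyLu (log2 difference -0.47, SE 0.09, limma adjusted p = 0.0059). Only 1 of these 4 values exceeded the control level, and with signal raised to that level the log2 difference was -0.02 (limma adjusted p = 0.96). Its brightest probe set read 4831 and 4730 in G and 4668 and 4482 in MAT-LyLu, short of the threshold. Kcnf1, a silent modifier of other Kv channels, read 1876 and 1944 in G and 2308 and 2305 in MAT-LyLu (log2 difference 0.27, SE 0.09, limma adjusted p = 0.043). Only 1 of these 4 values exceeded the control level, and with signal raised to that level the log2 difference was 0.17 (limma adjusted p = 0.45). Leaving out any 1 of the 4 arrays ended that call (limma adjusted p 0.065 to 0.16).

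Kcnab2, a Kv beta subunit related to aldo-keto reductases, read 5915 and 5593 in G and 4477 and 4329 in MAT-LyLu. It was 1.31-fold lower (log2 difference -0.38, SE 0.08, limma adjusted p = 0.0081) on 1 of its 2 probe sets. Kcnj10, an inward rectifier known from glia, read 3127 and 2831 in G and 3685 and 3622 in MAT-LyLu. It was 1.23-fold higher (log2 difference 0.29, SE 0.09, limma adjusted p = 0.035), a call lost without G replicate 1 or without either MAT-LyLu replicate (limma adjusted p 0.10 to 0.15). The other Kcnj10 probe set read 1755 and 1720 in G and 1776 and 1751 in MAT-LyLu, under the control level on all arrays. It did not pass the test (log2 difference 0.02, limma adjusted p = 0.88). One Kcnmb1 probe set read 7122 and 6475 in G and 7920 and 8781 in MAT-LyLu, 1.23-fold higher (log2 difference 0.30, SE 0.09, limma adjusted p = 0.046). Its other probe set read 7489 and 6991 in G and 6707 and 7113 in MAT-LyLu, with the opposite sign and overlapping arrays. The Kcnmb1 call was lost without G replicate 1 (limma adjusted p = 0.18) and without MAT-LyLu replicate 0 (0.052) or 1 (0.26), as well as without the intensity trend (0.052) or the filter (0.053).

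Among calcium channel accessory subunits, Cacnb3 fell and Cacna2d1 rose. Cacnb3, a beta subunit, read 4581 and 4159 in G and 2629 and 2759 in MAT-LyLu, above the control level throughout and 1.62-fold lower in MAT-LyLu (log2 difference -0.69, SE 0.09, limma adjusted p = 0.00059). Cacna2d1, the alpha-2-delta subunit bound by gabapentin, read 1909 and 2054 in G, under the control level, and 2715 and 3188 in MAT-LyLu. Against that level it was at least 1.43-fold higher (fitted log2 difference 0.57, SE 0.11, limma adjusted p = 0.004). All Cacna2d1 values lay under the level with the antisense controls added, so this minimum fold holds only for the main level. No array of 1 line overlapped those of the other for either gene.

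The reference sequence upstream of these 2 genes is shown because they carried the largest calls among the calcium channel genes, in opposite directions, and they were chosen after their values were seen. Each stretch is the 250 bases before the annotated start in RefSeq's table for GRCr8, at chr7:131666301-131666550 on the + strand for Cacnb3 and chr4:20330148-20330397 on the - strand for Cacna2d1, which has 3 starts in the table, of which the one farthest upstream was used. Capitals mark the GC box letters GGGCGG on either strand, overlaps included.
Cacnb3: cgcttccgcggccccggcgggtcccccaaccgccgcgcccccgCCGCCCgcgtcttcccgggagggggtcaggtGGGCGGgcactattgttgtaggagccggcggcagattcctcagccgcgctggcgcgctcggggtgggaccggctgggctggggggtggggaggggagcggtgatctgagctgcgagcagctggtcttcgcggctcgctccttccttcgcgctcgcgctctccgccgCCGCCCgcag
Cacna2d1: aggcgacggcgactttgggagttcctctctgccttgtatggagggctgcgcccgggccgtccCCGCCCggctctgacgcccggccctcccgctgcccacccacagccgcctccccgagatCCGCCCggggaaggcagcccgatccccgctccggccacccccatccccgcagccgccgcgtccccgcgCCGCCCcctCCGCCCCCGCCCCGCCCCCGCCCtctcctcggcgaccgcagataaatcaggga
The Cacnb3 stretch holds 3 GC boxes at 76.4% G and C, and that of Cacna2d1 holds 7 at 77.2%. Upstream stretches were matched for 49 of the 68 channel genes. Of these 26 (53.1%) hold GGGCGG on either strand, beside 32.4% of 27457 stretches of the same length in the table, and their median G and C content was 64.8%, beside 52.0%. The letters TATAAA, searched on both strands, occur in 6.12% and 13.1%. These matches describe the letters and no binding was measured.

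Of the alpha-1 genes, 3 also passed the test. Cacna1g, a T-type pore, read 5915 and 5894 in G and 4619 and 4821 in MAT-LyLu, 1.25-fold lower (log2 difference -0.32, SE 0.08, limma adjusted p = 0.016). Cacna1c, the L-type pore of heart and smooth muscle, read 5638 and 5102 in G and 4502 and 4213 in MAT-LyLu, 1.23-fold lower (log2 difference -0.30, SE 0.09, limma adjusted p = 0.036) on 1 of 3 probe sets. Cacna1a, the P/Q-type pore, read 5208 and 4746 in G and 5796 and 6753 in MAT-LyLu, 1.26-fold higher (log2 difference 0.33, SE 0.10, limma adjusted p = 0.041) on 1 of 4. The remaining probe sets of Cacna1c and Cacna1a were under the control level on all arrays. The Cacna1g call was lost without G replicate 0 (limma adjusted p = 0.052) or MAT-LyLu replicate 0 (0.091). That of Cacna1c was lost without G replicate 0 (0.15) or either MAT-LyLu replicate (0.061 and 0.18) and under quantile normalization (0.055), and that of Cacna1a without G replicate 1 (0.16) or MAT-LyLu replicate 1 (0.25).

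The 62 channel probe sets tested without passing all had 95% intervals of the log2 difference within 1 of 0. For 59 (95.2%) the interval lay within 0.5 of 0, as for 89.3% of the 4346 probe sets that did not pass in all. The widest interval, for 1 Kcnma1 probe set, reached -0.96. There MAT-LyLu replicate 1 read 1132 against 2070 in replicate 0, and without replicate 0 the log2 difference was -0.83 (limma adjusted p = 0.00081). A further 32 channel probe sets were not tested and were under the control level on all arrays. With no filter on low values 2 of them passed, Kcna2 at a log2 difference of -0.81 (limma adjusted p = 0.043) and Kcnma1 at 0.41 (0.027), all 4 values of each under the control level.

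Several probe sets read 28 of the 68 genes, 68 probe sets in all, and they did not always give like values. For 7 genes 1 probe set was above the control level on all 4 arrays while another was above it on none. Kcna1 read 5272 and 5840 in G on 1 probe set and 333 and 429 on the other. Of the 14 genes called, 8 had several probe sets, and none of the 8 was called on more than 1. For Kcnc2 and Cacna1c only 1 probe set was tested, so no further call was possible. Among the 108 probe sets 40, and 4 of the 14 called, carry a suffix by which the manufacturer marks probes shared among related transcripts. The 4 called were those of Kcnc2, Kcnd3, Kcnj10 and Cacna1a.

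**Figure D5:**
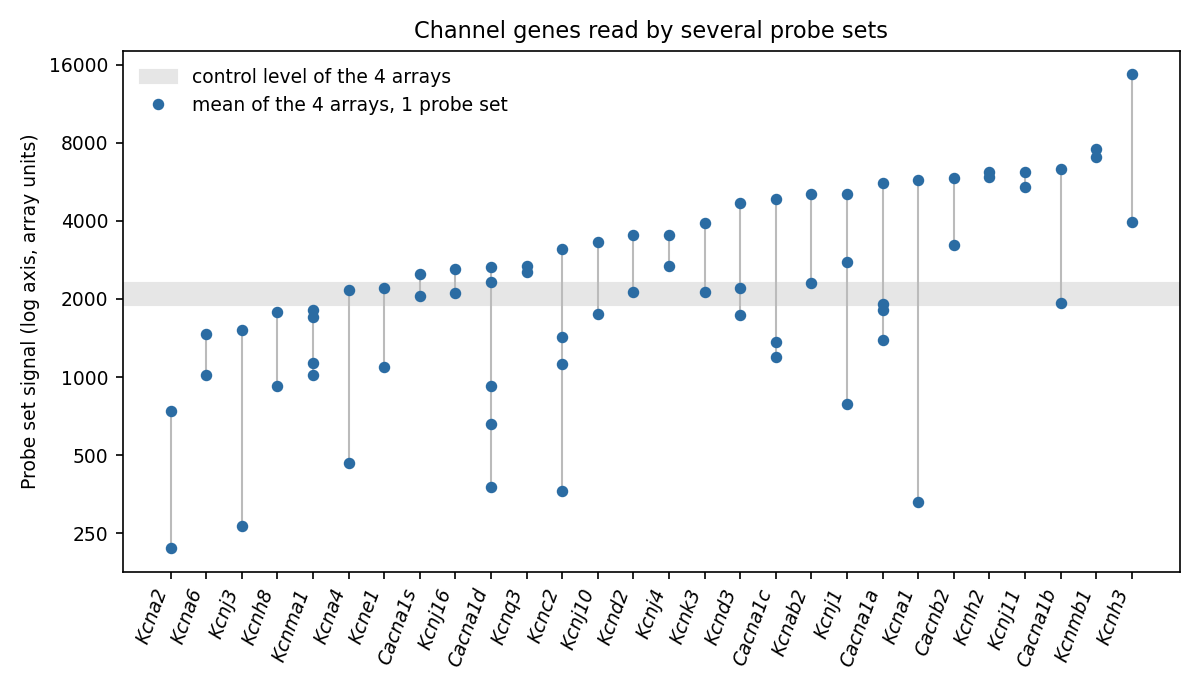
Mean signal over the 4 arrays (log axis, array units) of each probe set for the 28 channel genes read by more than 1, with a grey band for the range of the control level. Probe sets of Kcna1, Kcnc2 and Cacna1a lie on both sides of the band.

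Genes that act beside the channels were read by their brightest tested probe set from 3 lists, in a fit that called 33.3% of 3867 genes (13.7% higher, 19.6% lower). Of 18 channel partners tested (27.8% called), 3 were higher and 2 lower, with a median log2 difference of 0.04. The calmodulin-dependent kinase Camk2d fell by 0.89 (SE 0.11, limma adjusted p = 0.00055) on the log2 scale, and 2 of its 6 probe sets were called lower. The scaffold Dlg1 was called lower on 1 of 3 probe sets (limma adjusted p = 0.001) at 2065 and 1886 in G and 1221 and 1252 in MAT-LyLu, with only 1 of the 4 values above the control level. With signal raised to that level 1 partner was lower, as without G replicate 0 or G replicate 1, and without G replicate 0 5 were higher. The kinase Sgk1 rose by 0.54 (limma adjusted p = 0.0024) and ankyrin Ank3 by 0.38 (limma adjusted p = 0.0081) on the log2 scale. For Ank3, 2 of 6 probe sets were called higher. Of 24 calcium-handling genes 4 were higher and 2 lower, with a median of -0.0031. The calcium buffer Pvalb read 7917 and 7496 in G and 2124 and 1904 in MAT-LyLu, 3.81-fold lower. Its MAT-LyLu values lay near the control level, with only 1 of them above it. Sri, for sorcin, a calcium-binding regulator of the ryanodine receptor, read 3986 and 3503 in G and 14028 and 13330 in MAT-LyLu, 3.65-fold higher. The calcium pumps Atp2b1 and Atp2a2 were 2.09-fold and 2.06-fold higher, each on 1 of several probe sets (3 and 4). The count of 2 lower became 1 when G replicate 1 or either of the MAT-LyLu arrays was left out. Of 9 sodium and potassium pump and cotransporter genes, Slc12a2 (log2 difference 0.36, on 1 of 4 probe sets) and Atp1b2 (0.30, on 1 of 3) were higher and Fxyd1 (-0.51) lower. The count of 2 higher became 0 when G replicate 1 or either of the MAT-LyLu arrays was left out, and the count of 1 lower became 2 without G replicate 1.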

How the data were processed

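Expression was measured on 4 Affymetrix arrays, 2 per line. The intensity values were deposited by the authors as 1 linear MAS5 signal per probe set, per the submitters' processing notes; scaling and the version of the software were not given in the sources read here. Probe set symbols came from the platform annotation, and all 108 channel symbols were current in RefSeq's GRCr8 gene table. The 59 control probe sets comprise 23 used for the control level, 9 for spiked transcripts, 9 antisense and 18 for rat genes.

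From these values log2(signal + 16) was computed and the 25% of rat probe sets with the lowest mean were left out. limma 3.58.1 in R 4.3.3 (lmFit, eBayes with an intensity trend, Benjamini-Hochberg over 6555 probe sets, threshold 0.05) compared the lines without covariates, and the procedure was tested on simulated data. A log2 difference is on the log2(signal + 16) scale. With 2 arrays against 2 an exact permutation test cannot go below a two-sided p of 0.333. Precision is limited by the number of arrays. A fold is written as "at least" where 1 line was under the control level on both arrays, which was then used in its place.

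Every channel probe set that passed the test or was above the control level in a line is named. The members, lists and alternatives were chosen with earlier results of these data known. Arrays numbered 0 and 1 are not described as pairs. Alternatives changed the pseudocount, filter, scaling, trend, control level, block and arrays used.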

Additional observations from a re-analysis of the deposited data

Results flagged for a closer look

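A further 9 control probe sets, for the antisense strand of bacterial and phage transcripts, entered neither the test between the lines nor the main control level. They were added to that level only as an alternative. The brightest gave a signal of 8649 and 8245 on the G arrays and 8969 and 8036 on the MAT-LyLu arrays, above the control level on all 4 arrays, and 5 of the 9 were above it on all 4. It was looked at again because it is a signal outside the main measurement that exceeds the 23 controls used for the control level. One channel probe set, for Kcnh3, was above it on all 4 arrays.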

How the results depend on the processing

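None of the 14 channel calls changed sign under any of the 14 alternatives of the test. Of the 14 channel calls, 6 (Kcnk1, Cacnb3, Kcnh2, Kcnc2, Cacna2d1 and Kcnab2) held in all alternatives that tested them other than the test against a minimum log2 difference of 1. That test left 0 channel probe sets higher and 0 lower, 136 and 164 of all probe sets, 0 and 0 partners, 1 and 1 calcium-handling genes and 0 and 0 pump genes. With the lowest 50% left out, 36 channel probe sets were tested, 4 were higher, and 1 partner was lower. A floor at the control level left 1 partner lower. Quantile normalization gave 7 calcium-handling genes higher and 1 lower, and median scaling 1 lower; calls higher in MAT-LyLu made up 40.3% of all calls as deposited and 47.5% with median scaling. Without the trend 1 pump gene was higher. Quantile normalization and median scaling each called 15 channel probe sets, sharing 13 and 14 with the 14. The dimmer Kcnj11 probe set passed under both, and the brighter one under neither.

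Leaving out 1 array at a time gave 2 to 7 channel probe sets higher and 6 to 8 lower, 659 to 1012 and 1004 to 1285 of all probe sets, 2 to 5 and 1 to 2 partners, 3 to 5 and 1 to 2 calcium-handling genes, and 0 to 2 and 1 to 2 pump genes; the line left with a lone array is assumed to vary like the other. Some of these fits also called channel probe sets outside the 14. Without G replicate 0 the log2 difference was -0.36 for the brighter Kcnk3 probe set, 0.39 for 1 Kcnma1 and 0.36 for 1 Cacna1d probe set. Without MAT-LyLu replicate 0 it was -0.42 for 1 Kcnj1 probe set. The fit with the replicate number as a block called 14 channel probe sets, the same 14, and 2 pump genes lower. With 2 arrays per line the deviations from the line means give a single correlation between same-numbered arrays, 0.16. The labels name nothing that same-numbered arrays share, and the numbers were not taken as pairs.

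The counts above the control level depend on that level. With the median control probe set it was exceeded by 93 channel probe sets in G and 93 in MAT-LyLu, with the brightest by 46 and 38, and with the antisense controls added, an alternative chosen after seeing the data, by 24 and 23. The causes were not tested.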
